A study of Mus musculus with 7 samples.

Results

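The cells described here are endocardial endothelial cells of the mouse heart, picked out in single-cell RNA sequencing by transcripts of Npr3. Members were chosen by these transcript counts: a cell was a member when it carried at least 1 UMI (a unique molecular identifier, that is 1 captured transcript) of Npr3, at least 2 UMIs of the endothelial genes Cdh5 and Pecam1 together, and no UMI of Ptprc (leukocytes), Pdgfra (fibroblasts), Prox1 or Mmrn1 (lymphatic endothelium). The rule found 316 members among 40158 kept cells and 4537 endothelial cells of 7 libraries. The other 4221 endothelial cells met the same conditions with no Npr3 UMI and are called Npr3=0 cells. The series asks how uptake of dying cells at an early age steers arachidonic acid metabolism of macrophages and regeneration of the heart, and endothelial cells entered its libraries beside the leukocytes. Hearts came from mice labelled MerTK KO at P1, with 1 library after myocardial infarction (Mertk KO P1 MI) and 1 after a sham operation (Mertk KO P1 sham), and from C57BL6/J mice (WT), with 1 library at 8 weeks after MI, 1 at 8 weeks after sham, 2 at P1 after MI and 1 at P1 after sham. Mertk is a receptor with which macrophages take up dying cells. The labels name neither the deleted part of the gene, nor a cell type in which it was deleted, nor the number of hearts in a library, nor the time after surgery.

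Endocardium is the endothelial sheet that lines the chambers and covers the valves. It sends neuregulin and other signals to the heart muscle beneath it, and in the embryo it gives rise to the mesenchyme of the valve cushions. Npr3 encodes the natriuretic peptide receptor C, which removes natriuretic peptides from the blood, and in the mouse heart it marks endocardium. Vwf (von Willebrand factor, the carrier of platelets to sites of vessel damage) is also high in endocardium and low in the capillaries of the muscle, and Cdh5 encodes the cadherin of endothelial junctions.

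Libraries were uneven, so comparisons were made over the 5 libraries with at least 15 members. These held 26 members in Mertk KO P1 MI, 29 in Mertk KO P1 sham, 62 in WT 8 week sham, 181 in WT P1 MI replicate 2 and 15 in WT P1 sham, or 313 in all. WT 8 week MI had 0 members of 40 endothelial cells, which allows a share of up to 7.5% by the floor of 3 cells and 8.81% by the exact 95% interval, and WT P1 MI replicate 1 had 3 of 128. The deposited UMI totals lay between 7707724 (WT 8 week MI) and 130847843 (WT P1 MI replicate 2). The median member had 5711 UMIs in Mertk KO P1 MI, 10997 in Mertk KO P1 sham, 5019 in WT 8 week sham, 9955 in WT P1 MI replicate 2 and 12649 in WT P1 sham, and the median Npr3=0 cell of these libraries had 6456, 7926, 2456, 7346 and 10782 in the same order. Reads of Mertk over all kept cells stood at 16.8 CPM (the gene's UMIs scaled to a common total per library or sum) in Mertk KO P1 MI and 13.2 in Mertk KO P1 sham, against 6.76 to 26.6 in the 5 WT libraries. A 3′ tag outside the deleted part would still be counted, so these levels do not check the genotype label. Xist was at 0 in endothelial cells of both 8 week libraries and Ddx3y at 0 in those of Mertk KO P1 sham, while the other 4 libraries held both, so sex composition differed along with the groups and its part was not tested. Cell Ranger 6.1.0 made the files of WT 8 week sham and of replicate 2 of WT P1 MI, and version 4.0.0 the others, per the file headers. No member's barcode was among the 129 barcodes that pairs of libraries shared. Labels do not tie libraries to separate animals, so a p-value here speaks for the spread among these libraries alone, and that spread may be technical.

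Members made up 16.9% of endothelial cells in Mertk KO P1 MI (26 of 154, exact 95% interval 11.3 to 23.8), 14.5% in Mertk KO P1 sham (29 of 200, 9.93 to 20.2), 3.50% in WT 8 week sham (62 of 1769, 2.70 to 4.47), 8.96% in WT P1 MI replicate 2 (181 of 2020, 7.75 to 10.3) and 6.64% in WT P1 sham (15 of 226, 3.76 to 10.7). Both Mertk KO libraries stood above the 3 WT libraries, and WT 8 week sham stood lowest. Intervals cover counting error only, and the rule fixes what is counted, so no test was made between groups. With each cell thinned to 1500 UMIs, which left out 4 to 321 shallower endothelial cells per library, the shares were 9.03%, 9.69%, 3.38%, 4.72% and 4.37% in the same order of libraries. Lymphocytes, which should lack the gene, had an Npr3 UMI in 0 to 1.30% of cells, and in 0 to 0.0553% after thinning, at median depths of 2483 to 11871 UMIs. Cells with Pdgfra had one in 1.75% to 5.04%, except in WT 8 week MI with 0 of 62. The share depends on the exclusion of Prox1, a gene of lymphatic endothelium that valve endothelium of the mouse also transcribes. With Prox1 allowed, members made up 18.1% in Mertk KO P1 MI, 17.5% in Mertk KO P1 sham, 3.83% in WT 8 week sham, 11.5% in WT P1 MI replicate 2 and 9.02% in WT P1 sham.

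**Figure D1:**
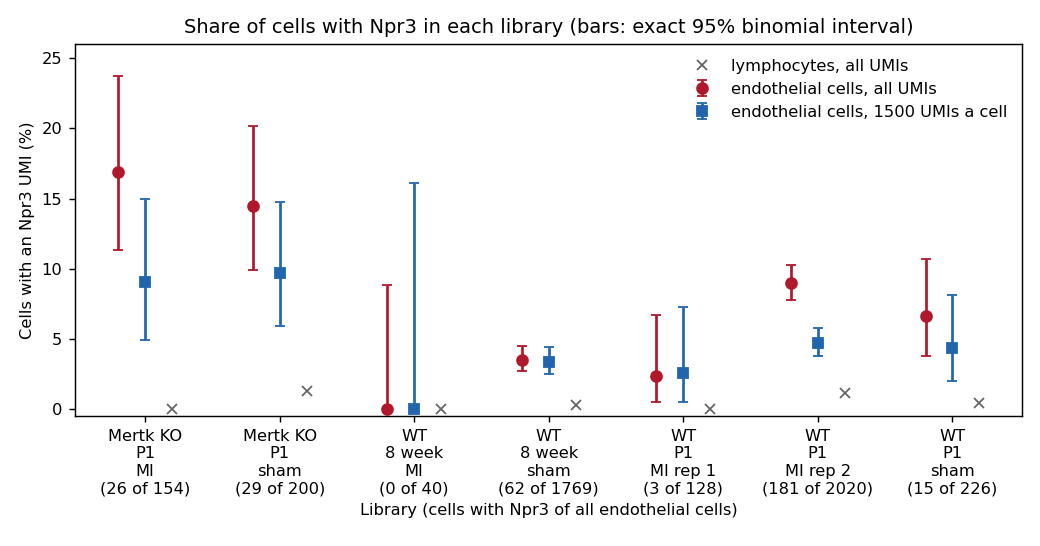
Share of endothelial cells that were members in each library, in percent, as deposited and after thinning each cell to 1500 UMIs, with exact 95% intervals. The Mertk KO P1 libraries sit at 16.9% and 14.5%, above WT 8 week sham at 3.50% and the WT P1 libraries at 2.34%, 8.96% and 6.64%.

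Set against capillary genes, the endocardial label held for most members but not for all. A sum over 20 endocardial genes other than the rule's own exceeded a sum over 15 genes of heart capillaries in 205 of 313 members (65.5%), against 45 of 4056 Npr3=0 cells (1.11%). By library these were 88.5% of members in Mertk KO P1 MI, 72.4% in Mertk KO P1 sham, 72.6% in WT 8 week sham, 58.6% in WT P1 MI replicate 2 and 66.7% in WT P1 sham, against 10.9%, 1.17%, 0.703%, 0.761% and 1.42% of Npr3=0 cells in the same order. Npr3=0 cells of Mertk KO P1 MI thus had the highest share of cells of endocardial type, 14 of 128, while WT P1 MI replicate 2 had as many such cells among 1839. The number of Npr3 UMIs in a cell, which the rule used, ordered the cells. Among the 76 members with 1 UMI the endocardial sum was the larger in 21.1%, with a median endocardial sum of 1243 CPM and a median capillary sum of 17802 CPM. Members with 2 to 4 UMIs (78 cells) had medians of 5984 and 4070 CPM for the endocardial and the capillary sum, and 65.4% of them had more endocardial signal. The 159 members with 5 or more UMIs had medians of 7943 and 2887 CPM, and the endocardial sum led in 86.8%. Npr3=0 cells had medians of 636 CPM endocardial and 35279 CPM capillary. A member with 1 Npr3 UMI was thus most often a cell of capillary type, apart from Mertk KO P1 MI, where 90% of 10 such cells had more endocardial signal. The 3 members of WT P1 MI replicate 1 summed to 10686 CPM over the full endocardial list and 2290 CPM over the capillary list.

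**Figure D2:**
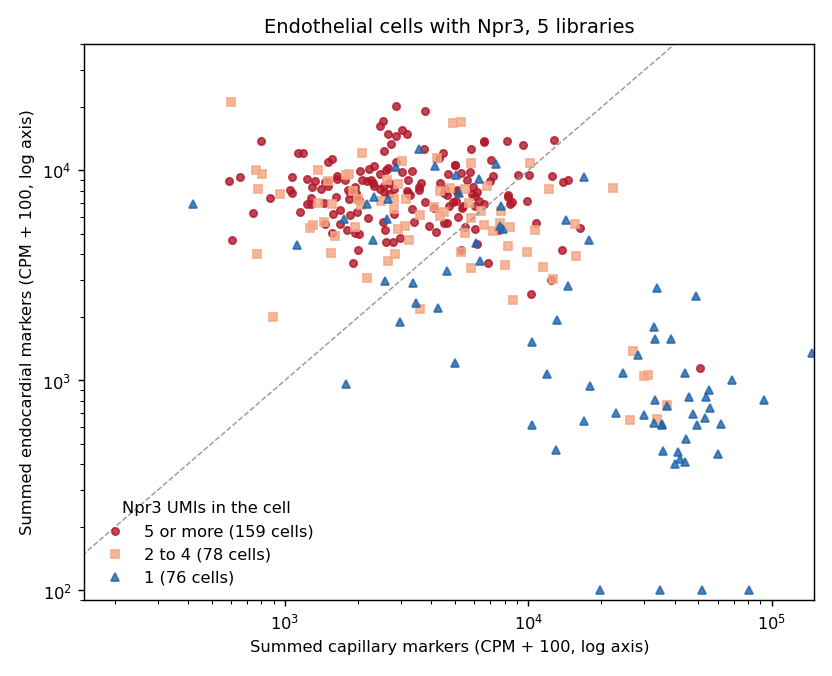
Each point is 1 of 313 members, with the sum of 15 capillary genes on the x axis and the sum of 20 endocardial genes on the y axis, both as CPM plus 100 on log axes, coloured by Npr3 UMIs. Cells with 5 or more Npr3 UMIs gather at high endocardial and low capillary sums (medians 7943 and 2887 CPM), and cells with 1 UMI spread towards high capillary sums (median 17802 CPM).

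Members were set against Npr3=0 cells of the same library by summing counts per library and class and testing the sums with edgeR's quasi-likelihood test, with the library as a block over 5 libraries. Genes of the rule were left out, and a gene was called when its Benjamini-Hochberg adjusted p was below 0.05 and its log2 fold change was 1 or more in either direction. Of 9576 genes tested, 6.21% were higher in members and 4.84% were lower, that is 595 and 463 genes. The genes highest in members, by a rule of size, included Ahsg, Nrg1, Smoc1, Comp, Mal, Col4a4, Epha7, Cdh11, Cyp1b1, Col23a1 and Tmem108, secreted proteins, matrix proteins and surface receptors for the most part. The genes lowest in members were Rsad2, Rgs5, Ly6c1, Cldn5, Sparcl1, Car4, Btnl9, Igfbp7, Vwa1, Sez6l2, Meox1 and Ifi203, among them capillary and pericyte genes. Because members include cells with more capillary than endocardial signal, these folds describe the class as the rule makes it. With members of 2 or more Npr3 UMIs, 755 genes were higher and 753 lower of 9436 tested. WT P1 sham had 11 such members and did not enter that test, so the libraries differ as well. Members were deeper than Npr3=0 cells in 4 of 5 libraries. With Npr3=0 cells matched to members in depth 486 genes of 4667 tested were called, and with every cell thinned to 1500 UMIs 436 of 3272.

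Nrg1, the neuregulin with which endocardium signals to ErbB receptors of heart muscle cells, stood in members at 128 CPM in Mertk KO P1 MI, 218 in Mertk KO P1 sham, 272 in WT 8 week sham, 79.5 in WT P1 MI replicate 2 and 144 in WT P1 sham. Npr3=0 cells had 2.80 CPM in Mertk KO P1 MI, 0.476 in Mertk KO P1 sham, 0.739 in WT 8 week sham, 0.697 in WT P1 MI replicate 2 and 0 in WT P1 sham. Levels of the classes did not overlap in any library, and members were higher in 5 of 5 (log2 fold change 7.41 ± 0.34 SE, adjusted p = 1.21e-07). Ahsg, which encodes the serum glycoprotein fetuin-A, a binder of calcium phosphate, was far less even, in members at 28.4 CPM in Mertk KO P1 MI, 348 in Mertk KO P1 sham, 366 in WT 8 week sham, 23.7 in WT P1 MI replicate 2 and 14.4 in WT P1 sham, and at 0 to 4.19 CPM in Npr3=0 cells (log2 fold change 7.58 ± 0.69 SE, adjusted p = 1.46e-05). The level in Mertk KO P1 sham and WT 8 week sham stood far above that of the other 3 libraries. Smoc1, a secreted antagonist of bone morphogenetic proteins, had 93.6 to 278 CPM in the members, against 0 to 6.99 CPM in Npr3=0 cells (log2 fold change 7.24 ± 0.52 SE, adjusted p = 2.47e-06), and was at 0 in Npr3=0 cells of 3 libraries. Cdh11, a cadherin of mesenchyme and valve cells, had 288 to 794 CPM in the members, against 1.85 to 28.7 CPM in Npr3=0 cells (log2 fold change 5.75 ± 0.40 SE, adjusted p = 1.99e-06). Another 7 genes of this group had log2 fold changes from 5.56 for Tmem108, a transmembrane protein, to 7.23 for Comp, cartilage oligomeric matrix protein, each higher in members of all 5 libraries.

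**Figure D3:**
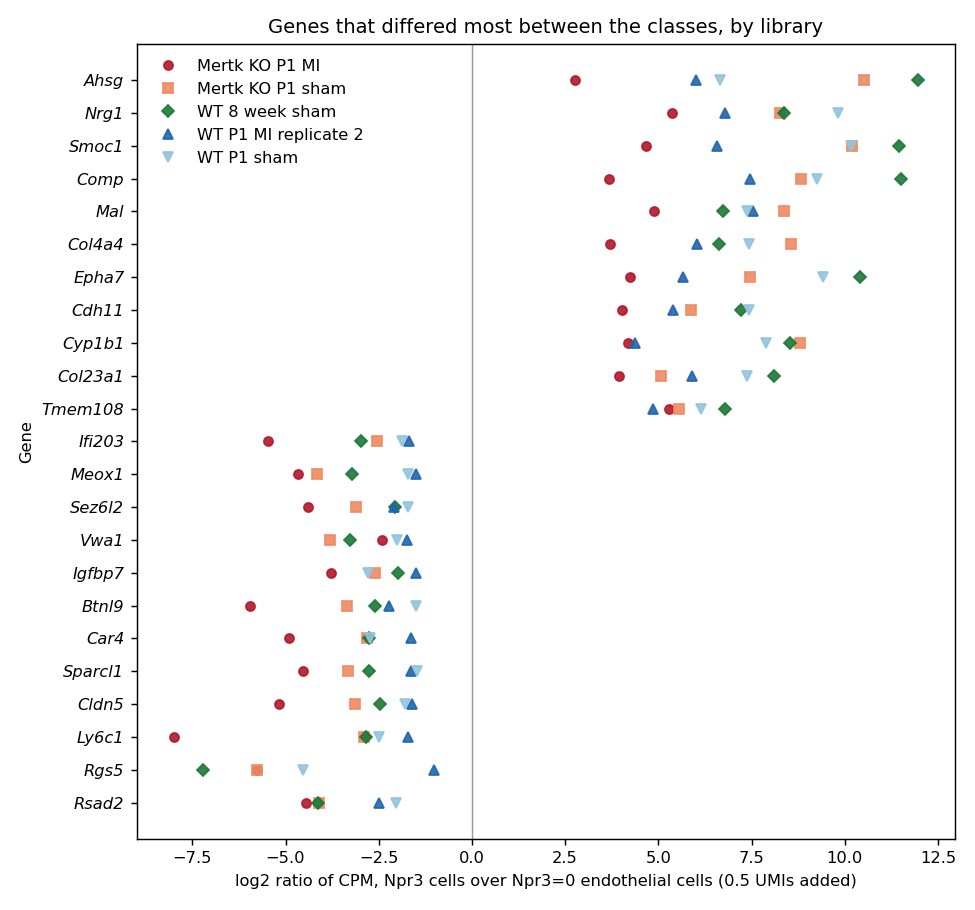
Log2 ratio of members over Npr3=0 cells in each of 5 libraries for 11 of the 12 genes highest and for the 12 genes lowest in members. All 5 points of each gene lie on 1 side of 0, and the lowest single point is Ly6c1 in Mertk KO P1 MI at -7.99.

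On GRCm38, Npr3 lies on chromosome 15 at 11839896 to 11907287 (minus strand), Nrg1 on chromosome 8 at 31814551 to 32884029 (minus), Vwf on chromosome 6 at 125546774 to 125686679 (plus) and Cytl1 on chromosome 5 at 37735519 to 37739820 (plus). Promoter sequence is shown for Npr3, whose transcripts chose the cells, for Ahsg, the gene with the largest fold in the class contrast among those named there, and for Cytl1, whose class difference had the largest age term among the named genes. Each is the RefSeq window from 250 bases before to 50 bases after the annotated start on GRCm38.p6, for Npr3 chr15:11907322-11907621 on the minus strand, for Ahsg chr16:22891765-22892064 on the plus strand and for Cytl1 chr5:37735269-37735568 on the plus strand. Capitals mark GATAA, the letters in the core of GATA factor motifs, and GGAAA, the core of NFAT motifs, searched on both strands (TTATC and TTTCC).
Npr3: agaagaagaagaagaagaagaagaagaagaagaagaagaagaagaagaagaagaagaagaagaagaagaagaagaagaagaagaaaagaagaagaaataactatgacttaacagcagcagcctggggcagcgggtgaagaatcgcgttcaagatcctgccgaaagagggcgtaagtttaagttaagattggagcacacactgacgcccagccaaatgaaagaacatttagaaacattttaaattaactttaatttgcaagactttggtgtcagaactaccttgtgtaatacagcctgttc
Ahsg: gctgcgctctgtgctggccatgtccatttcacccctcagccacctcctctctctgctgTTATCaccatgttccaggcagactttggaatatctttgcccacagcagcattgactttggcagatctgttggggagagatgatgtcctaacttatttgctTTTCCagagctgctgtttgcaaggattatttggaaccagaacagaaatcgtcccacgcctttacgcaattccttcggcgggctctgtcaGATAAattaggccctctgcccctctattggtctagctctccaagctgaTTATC
Cytl1: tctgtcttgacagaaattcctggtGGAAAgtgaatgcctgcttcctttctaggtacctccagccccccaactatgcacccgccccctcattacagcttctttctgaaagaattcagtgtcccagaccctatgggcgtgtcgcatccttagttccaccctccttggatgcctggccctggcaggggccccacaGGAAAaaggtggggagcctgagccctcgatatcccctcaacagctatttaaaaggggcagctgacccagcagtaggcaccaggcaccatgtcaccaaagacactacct

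The Ahsg window held GATAA 3 times, at -192, -3 and 45 from the start, and GGAAA once, at -92. The Cytl1 window held no GATAA and GGAAA at -226 and -58, and the Npr3 window held neither. The Npr3 window follows the RefSeq start and lies wholly upstream of the gene position given above, which is GENCODE's. Of 32851 windows, 25.4% held GATAA and 61.3% held GGAAA, so these matches are frequent and describe letters only. Of the 12 genes highest in members, 7 had an entry in the table.

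Genes known from endocardium were higher in members. Of 22 listed, 18 were tested and 16 were higher in members, with a median log2 fold change of 3.67, against -0.03 over all genes. Vwf, which the label names as a marker, stood in members at 1184 CPM in Mertk KO P1 MI, 1870.4 in Mertk KO P1 sham, 1612 in WT 8 week sham, 355 in WT P1 MI replicate 2 and 558 in WT P1 sham. Among Npr3=0 cells it had 18.7 to 140.5 CPM (log2 fold change 4.08 ± 0.31 SE, adjusted p = 3.14e-06). Every member value exceeded every Npr3=0 value. Plvap, which forms the diaphragms of fenestrae and caveolae, had 277 to 929.6 CPM in the members, against 0.643 to 275 CPM in Npr3=0 cells (log2 fold change 4.23 ± 0.59 SE, adjusted p = 3.43e-04). Its Npr3=0 level in Mertk KO P1 MI, 275 CPM, was close to the 277 CPM of members in WT P1 sham. Cytl1, a small secreted cytokine-like protein, had 104 to 1221 CPM in the members, against 0.643 to 47.9 CPM in Npr3=0 cells (log2 fold change 5.19 ± 0.70 SE, adjusted p = 2.35e-04). Adgrg6, an adhesion receptor needed for trabeculation in the mouse, had 44.3 to 114 CPM in the members, against 0.643 to 3.33 CPM in Npr3=0 cells (log2 fold change 5.12 ± 0.26 SE, adjusted p = 1.90e-07). Cgnl1, a junction protein, had a log2 fold change of 3.24 ± 0.19 SE and endomucin (Emcn), a surface mucin of veins and endocardium, 1.49 ± 0.14 SE. Nfatc1, the calcium-regulated factor of valve endocardium, had 34.4 to 115 CPM in the members, against 16.8 to 42.3 CPM in Npr3=0 cells, and its log2 fold change of 0.97 ± 0.20 SE fell short of the fold limit (adjusted p = 0.00486). Tbx20 was not called (log2 fold change -0.22 ± 0.47 SE, adjusted p = 0.820). Hapln1, a link protein of the cardiac jelly, had 0 UMIs in the members of every library, and Wnt9b was at 0 in 3 of the 5. Genes of veins also stood higher, 7 of 9 tested with a median of 2.19, among them Vcam1, an adhesion molecule for leukocytes (log2 fold change 2.81 ± 0.37 SE), and Mgp, the matrix Gla protein that restrains calcification (log2 fold change 3.79 ± 0.23 SE).

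Transcription factors differed in both directions. Of 27 tested, 9 were higher in members and 6 lower (median 0.01). Hand2, a bHLH factor of the developing heart, had 132 to 232 CPM in the members, against 1.66 to 16.1 CPM in Npr3=0 cells (log2 fold change 4.18 ± 0.32 SE, adjusted p = 4.05e-06). Gata4, a zinc finger factor of the cardiac lineage, had 15.7 to 59.2 CPM in the members, against 1.48 to 5.71 CPM in Npr3=0 cells (log2 fold change 3.24 ± 0.25 SE). Its relative Gata6 had 180.3 to 287 CPM in the members, against 20.3 to 50.9 CPM in Npr3=0 cells (log2 fold change 2.52 ± 0.19 SE). Foxc1, a forkhead factor, had a log2 fold change of 3.27 ± 0.23 SE and its relative Foxc2 2.78 ± 0.39 SE. The venous factor Nr2f2 had 1.84 ± 0.16 SE. Factors of capillary and arterial endothelium went the other way, Meox1 with -2.41 ± 0.33 SE, Tcf15 with -1.86 ± 0.22 SE, Sox17 with -1.72 ± 0.22 SE and Meox2 with -1.58 ± 0.37 SE. Each of these was called by edgeR's test over 5 libraries.

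Signals that endocardium sends to muscle were more often higher than lower in members. Of 15 tested, 8 were higher and 3 lower, with a median log2 fold change of 1.41. Edn1, the precursor of the vasoconstrictor endothelin-1, had 106 to 237 CPM in the members, against 10.6 to 72.7 CPM in Npr3=0 cells (log2 fold change 2.81 ± 0.29 SE, adjusted p = 3.39e-05). Ece1, which cleaves it to the active peptide, had 502 to 855 CPM in the members, against 118 to 256 CPM in Npr3=0 cells (log2 fold change 2.10 ± 0.16 SE, adjusted p = 3.35e-06). Inhba, the activin A subunit, had in members 85.2 CPM in Mertk KO P1 MI, 56.9 in Mertk KO P1 sham, 6.26 in WT 8 week sham, 221 in WT P1 MI replicate 2 and 179.96 in WT P1 sham. The range in Npr3=0 cells was 0 to 41.2 CPM (log2 fold change 4.44 ± 0.75 SE, adjusted p = 0.00124). It was low in WT 8 week sham in both classes. Wnt2, a Wnt ligand, was higher at low levels (6.83 to 42.6 CPM in members and 0.965 to 2.38 CPM in Npr3=0 cells, log2 fold change 3.65 ± 0.38 SE, adjusted p = 4.00e-05). The 3 lower genes were Pdgfb, the pericyte-recruiting growth factor (log2 fold change -1.51 ± 0.23 SE), the peptide apelin (Apln, log2 fold change -1.40 ± 0.43 SE) and its receptor Aplnr (log2 fold change -1.78 ± 0.32 SE).

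In the bone morphogenetic protein and TGF-β pathways 9 of 21 tested genes were higher and 1 lower (median 0.29). The ligands Tgfb2, which drives the endocardial to mesenchymal transition of the cushions, and Bmp6 were higher. Tgfb2 had 52.1 to 234 CPM in the members, against 11.3 to 20.5 CPM in Npr3=0 cells (log2 fold change 2.62 ± 0.23 SE, adjusted p = 1.17e-05). Bmp6 had 47.4 to 275 CPM in the members, against 5.59 to 54.2 CPM in Npr3=0 cells (log2 fold change 2.41 ± 0.16 SE, adjusted p = 1.97e-06). Bmp4 and Bmp2 were not called, at -0.11 ± 0.23 and -0.50 ± 0.50 SE. Of the receptors, Bmpr1a had 58.6 to 105 CPM in the members, against 2.96 to 5.27 CPM in Npr3=0 cells (log2 fold change 3.95 ± 0.24 SE, adjusted p = 7.82e-07). Eng, Tgfbr2 and Tgfbr3 had log2 fold changes of 1.32, 1.09 and 1.07. The inhibitory Smads were higher, Smad6 by 1.59 ± 0.20 and Smad7 by 1.07 ± 0.12 SE. The target Id2 had 260.4 to 585 CPM in the members, against 34.4 to 74.5 CPM in Npr3=0 cells (adjusted p = 1.57e-06), whereas Id1, a target of the same pathway, was lower in members (log2 fold change -1.11 ± 0.20 SE, adjusted p = 0.00189). Of 16 genes of the cushion and its transition, 7 were higher and 2 lower. Vcan (versican, a proteoglycan of the cushion) had 6.26 to 414 CPM in the members, against 3.14 to 16.8 CPM in Npr3=0 cells (adjusted p = 1.16e-05), Mmp2, a matrix protease, had a log2 fold change of 2.91 ± 0.23 SE, and the transition factor Snai2 was lower (log2 fold change -1.16 ± 0.24 SE).

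Matrix genes differed in both directions, with 10 of 30 higher and 5 lower (median 0.17). Eln, which encodes elastin, had in members 1387 CPM in Mertk KO P1 MI, 4889.8 in Mertk KO P1 sham, 113 in WT 8 week sham, 1177 in WT P1 MI replicate 2 and 3185 in WT P1 sham. Its level in Npr3=0 cells was 69.9 to 269.8 CPM (log2 fold change 3.01 ± 0.42 SE, adjusted p = 3.47e-04). WT 8 week sham was the lowest library in both classes. Bgn, a small proteoglycan, was higher (log2 fold change 3.12 ± 0.36 SE, adjusted p = 8.32e-05), while the basement membrane chains Col4a1 and Col4a2 were lower (log2 fold change -1.62 ± 0.17 and -1.72 ± 0.20 SE), as was Col15a1 (log2 fold change -2.04 ± 0.38 SE). Of 8 fibroblast markers tested, 4 were higher in members, namely Dcn, Lum, Col1a2 and Postn. Dcn, the collagen-binding proteoglycan decorin, had 696 to 2445 CPM in the members, against 20.3 to 393 CPM in Npr3=0 cells (log2 fold change 3.30 ± 0.52 SE, adjusted p = 8.33e-04). Summed over 10 fibroblast markers, members had 1618 to 3136 CPM and Npr3=0 cells 198 to 1066 CPM. Pdgfra is at 0 by rule, Tcf21 was at 0 in members of 4 libraries and Col1a1 was not called (log2 fold change 0.29 ± 0.43 SE, adjusted p = 0.716). The part of fibroblast RNA in these genes was not tested.

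Of the genes of haemostasis 6 of 16 were higher and 1 lower (median 0.72), with Vwf leading, followed by Entpd1, which degrades the platelet agonist ADP (log2 fold change 1.71 ± 0.25 SE), Procr, the protein C receptor (log2 fold change 1.47 ± 0.48 SE), and Tfpi, the tissue factor pathway inhibitor (log2 fold change 1.38 ± 0.20 SE). The prostanoid genes bear on the arachidonic acid question of the series, and 3 of 6 tested were higher in members and 1 lower. Pla2g4a, the phospholipase that frees arachidonic acid from membranes, had 20.5 to 78.3 CPM in the members, against 0.643 to 3.49 CPM in Npr3=0 cells (log2 fold change 4.59 ± 0.37 SE, adjusted p = 5.71e-06). Ptgs1, cyclooxygenase 1, had in members 147 CPM in Mertk KO P1 MI, 228 in Mertk KO P1 sham, 488 in WT 8 week sham, 156 in WT P1 MI replicate 2 and 155 in WT P1 sham. Npr3=0 cells had 20.3 to 55.1 CPM (log2 fold change 2.53 ± 0.19 SE, adjusted p = 3.14e-06). No member value fell into the Npr3=0 range. Ptgis, which makes prostacyclin, had 61.6 to 188 CPM in the members, against 4.18 to 35.6 CPM in Npr3=0 cells (log2 fold change 2.69 ± 0.43 SE, adjusted p = 8.85e-04), and the thromboxane receptor gene Tbxa2r was lower (log2 fold change -1.89 ± 0.34 SE, adjusted p = 0.00186). Of 13 genes for the uptake of dying cells, Axl, Gas6 and Stab1 were higher and Cd36 and Scarb1 lower. Axl is a receptor of the Mertk family and Gas6 their shared ligand, and their log2 fold changes were 1.77 ± 0.35 and 1.12 ± 0.20 SE. Mertk itself was low in both classes, with 3.60 to 29.6 CPM in members, and was not called (log2 fold change -0.24 ± 0.39 SE, adjusted p = 0.746).

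Members had less of the capillary genes. Of 15 capillary genes 12 were lower and 1, Cdkn1c, was higher (median -1.68), and of 16 genes of endothelial fatty acid uptake 12 were lower and 1, Fabp5, was higher (median -1.60). The lists share genes, and Cd36, Fabp4, Gpihbp1, Meox2 and Tcf15 were lower in both. Gpihbp1, which holds lipoprotein lipase on capillaries, had in members 128 CPM in Mertk KO P1 MI, 159 in Mertk KO P1 sham, 473 in WT 8 week sham, 516 in WT P1 MI replicate 2 and 641 in WT P1 sham. Among Npr3=0 cells it had 1307 to 2482 CPM (log2 fold change -2.37 ± 0.29 SE, adjusted p = 1.31e-04). Each member value lay below each Npr3=0 value. Cd36, the fatty acid translocase, and Fabp4, a cytosolic fatty acid carrier, had log2 fold changes of -1.67 ± 0.23 and -1.97 ± 0.32 SE. Fabp5, a carrier of the same family, had 5312 to 9839.8 CPM in the members, against 1584 to 3570.4 CPM in Npr3=0 cells (log2 fold change 1.45 ± 0.14 SE, adjusted p = 2.54e-05). Ly6c1, a surface antigen of capillary endothelium whose reads a near-identical copy, Ly6c2, may share, had in members 0 CPM in Mertk KO P1 MI, 100.1 in Mertk KO P1 sham, 438 in WT 8 week sham, 218 in WT P1 MI replicate 2 and 151 in WT P1 sham. The range in Npr3=0 cells was 599.7 to 3139 CPM (log2 fold change -2.75 ± 0.35 SE, adjusted p = 1.78e-04). It was at 0 UMIs in members of Mertk KO P1 MI. The tight junction gene Cldn5 had 18.9 to 461 CPM in the members, against 371 to 1595 CPM in Npr3=0 cells (log2 fold change -2.54 ± 0.33 SE, adjusted p = 2.07e-04). In VEGF, angiopoietin and apelin signalling 8 of 19 were lower, with Kdr, the main VEGF receptor, at -1.54 ± 0.15 SE, and 2 were higher, Tek, the angiopoietin receptor (log2 fold change 1.17 ± 0.18 SE), and Calcrl (log2 fold change 1.48 ± 0.27 SE). In Notch signalling 5 of 13 were lower, among them the ligands Dll4 (log2 fold change -1.87 ± 0.28 SE) and Jag2 (log2 fold change -1.76 ± 0.25 SE), and the ligand Dll1 was higher (log2 fold change 1.47 ± 0.39 SE).

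Of 6 genes of the natriuretic pathway tested besides Npr3, 2 were called. Prkg1, the cGMP-dependent kinase, was higher (log2 fold change 1.99 ± 0.47 SE, adjusted p = 0.0102) and Pde2a, a phosphodiesterase of cGMP and cAMP, was lower (log2 fold change -1.18 ± 0.21 SE, adjusted p = 0.00200). The signalling receptors Npr1 and Npr2 had log2 fold changes of 0.07 ± 0.15 and -0.14 ± 0.22 SE and were not called. Npr3 itself chose the cells, so its member levels are a description, 492 CPM in Mertk KO P1 MI, 1115 in Mertk KO P1 sham, 1799.8 in WT 8 week sham, 391 in WT P1 MI replicate 2 and 669 in WT P1 sham. Mural, cardiomyocyte and leukocyte markers were more often lower than higher in members. Of 10 mural genes 7 were lower, led by Rgs5 (log2 fold change -2.99 ± 0.56 SE, adjusted p = 0.00258), whose call did not hold without the library block (adjusted p = 0.15), and whose member level was 217 CPM in WT P1 MI replicate 2 but 0 to 18.0 in the other 4 libraries. Of 8 cardiomyocyte genes 6 were lower and of 8 leukocyte genes 5 were lower. Summed marker levels were 178 to 997 CPM in members and 170 to 1369 CPM in Npr3=0 cells for 12 cardiomyocyte genes, and 39.6 to 507 CPM in members and 157 to 2305 CPM in Npr3=0 cells for 12 leukocyte genes. Interferon-response genes were lower in 7 of 26, Rsad2 (log2 fold change -3.23 ± 0.29 SE, adjusted p = 1.38e-05) and Isg15 (log2 fold change -1.18 ± 0.16 SE) among them, and no gene of 13 for MHC class I and II was called. Of 15 arterial genes 2 were higher and 4 lower, of 23 inflammatory genes 2 and 2, of 20 genes of hypoxia and glycolysis 0 and 2, and of 18 immediate early and dissociation genes 0 and 1.

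Imprinted growth genes stood high in members. Of 12 tested, 7 were higher and 2 lower, with a median log2 fold change of 1.28. H19, a non-coding RNA transcribed from the maternal allele, had in members 5436 CPM in Mertk KO P1 MI, 8537 in Mertk KO P1 sham, 911 in WT 8 week sham, 2841 in WT P1 MI replicate 2 and 2901 in WT P1 sham. Npr3=0 cells had 304 CPM in Mertk KO P1 MI, 479 in Mertk KO P1 sham, 1.66 in WT 8 week sham, 263 in WT P1 MI replicate 2 and 284 in WT P1 sham (log2 fold change 4.29 ± 0.58 SE, adjusted p = 2.44e-04). Igf2, the paternally expressed growth factor beside it, had in members 3196 CPM in Mertk KO P1 MI, 4476 in Mertk KO P1 sham, 739 in WT 8 week sham, 1938 in WT P1 MI replicate 2 and 3556 in WT P1 sham. Its level in Npr3=0 cells was 18.9 to 584 CPM (log2 fold change 3.40 ± 0.33 SE, adjusted p = 2.46e-05). Both lie on chromosome 7 of GRCm38, H19 at 142575529 to 142578143 and Igf2 at 142650766 to 142666816, both on the minus strand. Plagl1, an imprinted zinc finger factor on chromosome 10, had 225 to 674 CPM in the members, against 1.48 to 57.6 CPM in Npr3=0 cells (log2 fold change 3.80 ± 0.39 SE, adjusted p = 3.39e-05). Igf2r, the receptor that clears Igf2, was higher (log2 fold change 1.45 ± 0.19 SE). Igfbp4, a binding protein of the same axis, had 1.62 ± 0.28 SE. The imprinted genes Meg3 and Mest were lower (log2 fold change -1.19 ± 0.31 and -1.53 ± 0.23 SE).

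Age was compared within the members by an additive fit of age, injury and genotype to the sums of the 5 libraries, with 1 residual degree of freedom. WT 8 week sham is the lone 8 week library with members and is assumed to vary like the P1 libraries, and the absence of Xist in it cannot be told apart from age. Of 6466 genes tested, 3.12% were higher at 8 weeks and 2.98% lower. TMM factors computed over the sums of both classes differed between member sums. Relative to plain totals, their means would move 8 weeks against P1 by 0.17 on the log2 scale and Mertk KO against WT by -0.11. The fit within members took its own factors from the member sums, and their shift was not computed. DESeq2 on the same sums called 64 genes for age, 16 for injury and 16 for genotype, where edgeR called 395, 165 and 188. The 8 week members were higher in antigen presentation and lower in matrix genes. Of 15 MHC genes 11 were higher and none lower (median 3.03, against -0.02 over all genes). Of 23 interferon-response genes 11 were higher and 1 lower (median 1.42). Of 29 matrix genes 4 were higher and 13 lower (median -1.25). Of 7 fibroblast markers Col1a1, Col1a2 and Col3a1 were lower and Dcn was higher (median -1.24), and the matrix list holds Col1a2 and Col3a1 as well. The 10 fibroblast markers summed to 3136 CPM in 8 week members, against 1861 CPM in Mertk KO P1 MI, 1618 in Mertk KO P1 sham, 2256 in WT P1 MI replicate 2 and 2095 in WT P1 sham. Tcf21 was at 0 in all of these but WT P1 MI replicate 2. Of 7 cardiomyocyte markers 4 were lower at 8 weeks (Tnnt2, Actc1, Myl2 and Myl3), with a sum of 178 CPM in 8 week members, against 189 to 997 CPM in P1 members. The part of these lineages in the age differences was not tested.

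H2-K1, an MHC class I heavy chain whose close copies may share its reads, had 1822 CPM in WT 8 week sham, against 554 in Mertk KO P1 MI, 344 in Mertk KO P1 sham, 229 in WT P1 MI replicate 2 and 122 in WT P1 sham (log2 fold change 4.05 ± 0.32 SE, adjusted p = 4.40e-16). B2m, the light chain, had 999 CPM in WT 8 week sham, against 256 in Mertk KO P1 MI, 255 in Mertk KO P1 sham, 394 in WT P1 MI replicate 2 and 259 in WT P1 sham (log2 fold change 2.01 ± 0.32 SE, adjusted p = 3.72e-06). The 8 week level was above all 4 P1 levels for both genes. So it was in Npr3=0 cells, with 1463 CPM of H2-K1 in WT 8 week sham, against 154 to 280 CPM in the P1 libraries. Cd74, the invariant chain of MHC class II, had 216 CPM in WT 8 week sham, against 33.1 in Mertk KO P1 MI, 4.55 in Mertk KO P1 sham, 15.8 in WT P1 MI replicate 2 and 3.60 in WT P1 sham (log2 fold change 6.54 ± 0.72 SE, adjusted p = 1.97e-10), and H2-Aa and H2-Ab1 of the same class had 113 and 100.2 CPM in WT 8 week sham, against 0 to 9.47 and 0 to 4.74 CPM at P1. Npr3=0 cells of WT 8 week sham had 707 CPM of Cd74. Leukocyte markers summed to 388 CPM in 8 week members, against 507 CPM in Mertk KO P1 MI, 41.0 in Mertk KO P1 sham, 229 in WT P1 MI replicate 2 and 39.6 in WT P1 sham, and their part in these genes was not tested. Igkc, an immunoglobulin chain that endothelial cells do not make, was at 222 CPM in 8 week members and 370.2 CPM in Npr3=0 cells of that library, against 0 to 16.9 CPM in P1 members. Hpgd, which inactivates prostaglandins, had 207 CPM in WT 8 week sham, against 4.74 in Mertk KO P1 MI, 6.83 in Mertk KO P1 sham, 0.720 in WT P1 MI replicate 2 and 0 in WT P1 sham (log2 fold change 8.11 ± 1.04 SE, adjusted p = 1.87e-08). Npr3=0 cells of the 8 week library had 0.739 CPM of it. Perp, a desmosomal membrane protein, had 87.6 CPM in WT 8 week sham, against 4.74 in Mertk KO P1 MI, 2.28 in Mertk KO P1 sham, 1.44 in WT P1 MI replicate 2 and 0 in WT P1 sham (log2 fold change 7.45 ± 2.03 SE, adjusted p = 0.0136), and 2.22 CPM in Npr3=0 cells of WT 8 week sham. Fmo2, a monooxygenase, had 48 UMIs at 8 weeks and 2 in all P1 members, a ratio of pooled levels of 279 with a counting interval of 73.0 to 2366, and stood as high in Npr3=0 cells of that library (160.1 CPM). Cxcl9, an interferon-induced chemokine, had 75.1 CPM in WT 8 week sham, against 0 in Mertk KO P1 MI, 0 in Mertk KO P1 sham, 13.7 in WT P1 MI replicate 2 and 0 in WT P1 sham (log2 fold change 7.73 ± 2.14 SE, adjusted p = 0.0150).

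On the lower side, Eln had 113 CPM in WT 8 week sham, against 1387 in Mertk KO P1 MI, 4889.8 in Mertk KO P1 sham, 1177 in WT P1 MI replicate 2 and 3185 in WT P1 sham (log2 fold change -4.69 ± 0.37 SE, adjusted p = 4.40e-16). The ages did not overlap, with a lowest P1 level of 1177 CPM. Igf1, the growth factor, had 0 UMIs in 8 week members and 690 UMIs over the P1 members, so it was at least 19.8-fold lower, with the floor set at 3 UMIs over the 8 week members. C1qtnf6, Bmp1, the procollagen C-proteinase, and Srgap1 were likewise at 0 UMIs and at least 10.5-, 7.09- and 5.26-fold lower, and C1qtnf6 and Bmp1 were not called under DESeq2. Vcan had 2 UMIs at 8 weeks, a ratio to P1 of 0.0308 with a counting interval of 0.00372 to 0.112. Inhba had 2 UMIs as well (ratio 0.0329, 0.00397 to 0.119) and Col14a1, a fibril-associated collagen, had 1 (ratio 0.0364, 0.000918 to 0.204). These genes are thus at or near 0 in 62 cells of 1 library. Of the imprinted list 4 of 11 were lower, H19 (log2 fold change -1.61 ± 0.30 SE, adjusted p = 9.59e-05), Igf2 (log2 fold change -1.94 ± 0.30 SE, adjusted p = 1.81e-06), Mest and Grb10. Of 17 endocardial genes 7 were higher and 1 lower. Bmp6 had 275 CPM in WT 8 week sham, against 47.4 in Mertk KO P1 MI, 93.3 in Mertk KO P1 sham, 64.0 in WT P1 MI replicate 2 and 64.8 in WT P1 sham (log2 fold change 2.04 ± 0.38 SE, adjusted p = 7.27e-05). Cytl1 and Vwf had log2 fold changes of 2.35 ± 0.37 and 1.76 ± 0.28 SE, and Cdh11 had -1.11 ± 0.33 SE. Ptgs1, higher in members than in Npr3=0 cells, was also higher at 8 weeks (log2 fold change 1.70 ± 0.34 SE, adjusted p = 2.64e-04).

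Whether the class difference itself changed with age was tested by an interaction of class and age in a fit of all 10 sums with library as a block and 1 residual degree of freedom. Of 9576 genes 0.261% were called, 25 genes. H19 was retained in members at 8 weeks while it was nearly absent from Npr3=0 cells, 911 CPM in members and 1.66 CPM in Npr3=0 cells of WT 8 week sham, against 2841 to 8537 CPM in members and 263 to 479 CPM in Npr3=0 cells of the P1 libraries. The class difference was larger at 8 weeks by 5.85 ± 0.24 SE on the log2 scale (adjusted p = 3.14e-06). An H19 UMI was found in 48.4% of 62 members and 0.176% of 1707 Npr3=0 cells of WT 8 week sham, against 0.410% of its lymphocytes, which lies above the Npr3=0 share, so the Npr3=0 share is read as background. Plagl1 went the same way, 225 CPM in members and 1.48 CPM in Npr3=0 cells at 8 weeks, against 284 to 674 CPM and 26.7 to 57.6 CPM at P1 (log2 difference 4.15 ± 0.49 SE, adjusted p = 0.00740), and so did Igf2 (log2 difference 2.85 ± 0.20 SE, adjusted p = 2.72e-04). Igfbp4, Colec11, a collectin of the complement system, Fhl2, a LIM-domain cofactor, and Stab1, a scavenger receptor, also had a larger class difference at 8 weeks, by 2.46, 3.92, 3.62 and 2.32 on the log2 scale. H19, Igf2 and Plagl1 were also called under DESeq2, and Fhl2 was not. The fitted class difference was lower at 8 weeks for Cytl1 (log2 difference -7.47 ± 0.88 SE), Plvap (log2 difference -4.14 ± 0.38 SE), Pi16, a secreted protease inhibitor (log2 difference -3.82 ± 0.48 SE), Eln (log2 difference -3.52 ± 0.36 SE) and Stmn2, a tubulin-binding protein (log2 difference -4.96 ± 0.63 SE). For Cytl1 the Npr3=0 level was 47.9 CPM in WT 8 week sham, against 45.4 CPM in Mertk KO P1 MI and 0.643 to 1.90 CPM in the other P1 libraries. Its interaction calls did not hold under DESeq2, and the share of Npr3=0 cells with more endocardial than capillary signal was 10.9% in Mertk KO P1 MI, whose part was not tested. In WT 8 week sham 1.11% of Npr3=0 cells held a Cytl1 UMI, against 0.164% of lymphocytes.

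**Figure D4:**
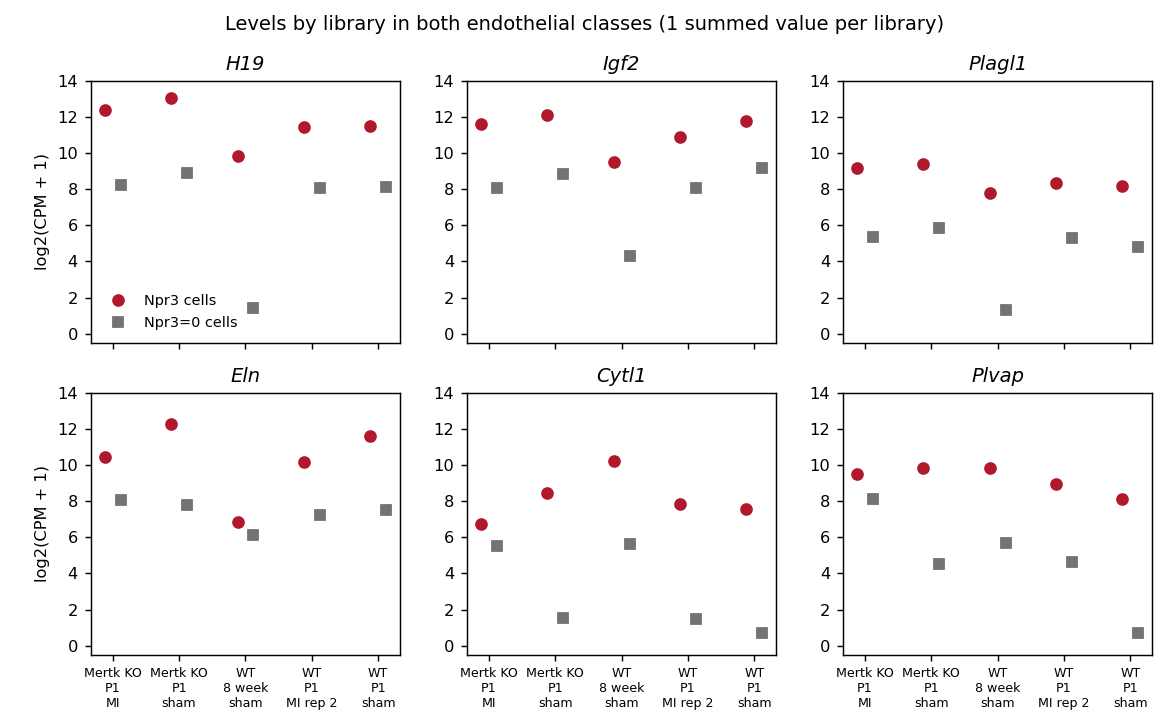
Levels of H19, Igf2, Plagl1, Eln, Cytl1 and Plvap in members and Npr3=0 cells of each library, in CPM on a log axis. In WT 8 week sham the H19 points of members and Npr3=0 cells lie at 911 and 1.66 CPM, the widest gap of the 5 libraries, and Eln in members lies at 113 CPM, below the P1 libraries.

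Infarction was compared within the members in the same additive fit, with 2 MI and 3 sham libraries. The age term takes up WT 8 week sham, the lone 8 week library. The fitted injury differences thus rest on the P1 libraries, and the levels of WT 8 week sham are given as a description. Of 6466 genes, 1.75% were higher and 0.804% lower after MI. Genes of the cell cycle rose in members after MI, 18 of 29 tested with none lower and a median log2 fold change of 1.76. The chemokines Ccl2, Cxcl1 and Cxcl2 and the acute-phase gene Lcn2 rose as well, and 6 of 7 cardiomyocyte markers fell. Top2a, the topoisomerase of dividing cells, had 156 CPM in Mertk KO P1 MI and 149 in WT P1 MI replicate 2, against 15.9 in Mertk KO P1 sham, 0 in WT 8 week sham and 7.20 in WT P1 sham (log2 fold change 3.76 ± 0.42 SE, adjusted p = 5.52e-10). Both MI libraries lay above all 3 sham libraries. A Top2a UMI was found in 5 of 26 members of Mertk KO P1 MI and 41 of 181 members of WT P1 MI replicate 2, against 1 of 29 in Mertk KO P1 sham, 0 of 62 in WT 8 week sham and 1 of 15 in WT P1 sham. Mki67, a nuclear protein of cycling cells, had 85.2 CPM in Mertk KO P1 MI and 116 in WT P1 MI replicate 2, against 11.4 in Mertk KO P1 sham, 3.13 in WT 8 week sham and 10.8 in WT P1 sham (log2 fold change 3.24 ± 0.47 SE, adjusted p = 8.80e-07). Birc5 (survivin) had 109 CPM in Mertk KO P1 MI and 109.7 in WT P1 MI replicate 2, against 4.55 in Mertk KO P1 sham, 6.26 in WT 8 week sham and 0 in WT P1 sham (log2 fold change 5.37 ± 0.62 SE, adjusted p = 1.32e-09). Among replication-dependent histones, whose copies share sequence, Hist1h2ap had 440.4 CPM in Mertk KO P1 MI and 133 in WT P1 MI replicate 2, against 9.10 in Mertk KO P1 sham, 3.13 in WT 8 week sham and 0 in WT P1 sham (log2 fold change 5.97 ± 0.45 SE, adjusted p = 1.08e-16). Hist1h1b had 2 UMIs over the sham members, a ratio of 71.9 with a counting interval of 19.8 to 596. Cdk1 had a log2 fold change of 3.08 ± 0.51 SE. The fitted values of Cenpf (9.16 ± 1.04 SE) and Cenpa (5.37 ± 0.80 SE) rest on few sham UMIs, 8 and 13, and are not sizes of effect. Their ratios of pooled levels were 13.8 (counting interval 6.93 to 32.3) and 6.35 (3.64 to 12.1). With DESeq2 in place of edgeR 5 of 29 cell cycle genes were called, Top2a, Birc5, Cenpf, Hmgb2 and H2afz. With members of 2 or more Npr3 UMIs over libraries with at least 3 members, 6 of 26 were higher and 1 was lower. The sums include members with more capillary than endocardial signal. After MI the endocardial sum led in 88.5% of members in Mertk KO P1 MI and 58.6% in WT P1 MI replicate 2. After sham it led in 72.4% in Mertk KO P1 sham and 66.7% in WT P1 sham. In WT P1 MI replicate 2 the 138 members with 2 or more Npr3 UMIs held 1646877 of 2779235 member UMIs. The part of this mix in the injury differences, and in the class by injury term, was not tested.

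The MI difference was larger in members than in Npr3=0 cells for part of these genes. The interaction of class and injury called 0.355% of 9576 genes, 34 in number, with 6 of 33 cell cycle genes among them, Mki67, Top2a, Birc5, Cenpf, Cenpa and Tpx2. In Npr3=0 cells Top2a stood at 147 CPM in Mertk KO P1 MI and 201 in WT P1 MI replicate 2, against 278 in Mertk KO P1 sham, 51.9 in WT 8 week sham and 125 in WT P1 sham, with the highest level in a sham library. Npr3=0 cells held a Top2a UMI in 28 of 128 in Mertk KO P1 MI and 532 of 1839 in WT P1 MI replicate 2, against 43 of 171 in Mertk KO P1 sham, 46 of 1707 in WT 8 week sham and 31 of 211 in WT P1 sham. The class by injury difference on the log2 scale was 3.97 ± 0.42 SE for Top2a (adjusted p = 0.00486), 3.63 ± 0.47 SE for Mki67 (adjusted p = 0.0113), 4.74 ± 0.67 SE for Birc5 (adjusted p = 0.0150) and 7.29 ± 0.44 SE for Hist1h2ap (adjusted p = 1.12e-04). The sham side of the members in this interaction rests on 29 cells of Mertk KO P1 sham and 15 of WT P1 sham. The 62 of WT 8 week sham are taken up by the class by age term. Hist1h1b, Hist1h2ap, Tpx2, Birc5 and Cenpf each had 0 UMIs in WT P1 sham. In the class contrast over all 5 libraries 10 of 33 cell cycle genes were lower in members and 1, Ccnd2, was higher (log2 fold change 1.44 ± 0.19 SE, adjusted p = 1.96e-04).

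**Figure D5:**
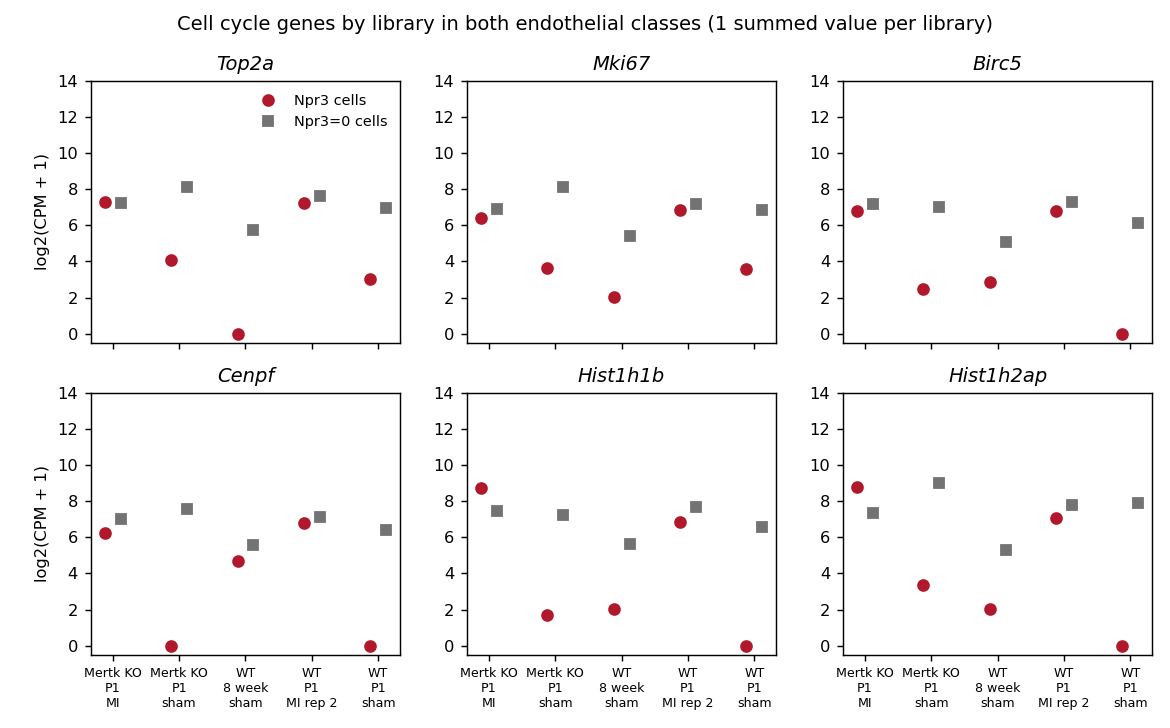
Levels of Top2a, Mki67, Birc5, Cenpf, Hist1h1b and Hist1h2ap in members and Npr3=0 cells of each library, in CPM. In members the 2 MI libraries lie above the 3 sham libraries for each gene, as for Top2a with 156 and 149 CPM after MI and 0 to 15.9 CPM after sham.

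Of 20 inflammatory genes 4 were higher after MI and none lower. Ccl2, which attracts monocytes, had 14 UMIs in Mertk KO P1 MI and 214 in WT P1 MI replicate 2, against 0 in each sham library, and was at least 26.4-fold higher, with the floor set at 3 UMIs over the sham members. Cxcl2, a neutrophil chemokine, had 85.2 CPM in Mertk KO P1 MI and 63.0 in WT P1 MI replicate 2, against 6.83 in Mertk KO P1 sham, 0 in WT 8 week sham and 14.4 in WT P1 sham (log2 fold change 2.96 ± 0.54 SE, adjusted p = 1.28e-04). Lcn2, an iron-binding acute-phase and neutrophil protein, was at 359.9 CPM in Mertk KO P1 MI and 9.71 in WT P1 MI replicate 2 with 2 UMIs over the sham members, a ratio of 17.9 with a counting interval of 4.82 to 149. Npr3=0 cells of Mertk KO P1 MI had 294 CPM of it. The neutrophil genes S100a8 and S100a9 were also higher (log2 fold change 4.87 ± 0.54 and 3.59 ± 0.46 SE), as were all 4 leukocyte markers tested. Leukocyte markers summed to 507 and 229 CPM in members after MI, against 41.0, 388 and 39.6 CPM after sham. In Npr3=0 cells they summed to 2305 and 286 CPM after MI, against 237, 1200 and 157 CPM after sham. Their part in these genes was not tested. The heat shock genes Hspa1a and Hspa1b, near-identical copies that can share reads, were higher (log2 fold change 4.37 ± 0.33 and 3.15 ± 0.32 SE), as were Dnajb1 and Nr4a1, or 4 of 18 genes that cell dissociation is known to induce. Of 7 cardiomyocyte genes 6 were lower, Actc1 (log2 fold change -2.29 ± 0.40 SE, adjusted p = 4.58e-05) and Myl2 (log2 fold change -1.99 ± 0.33 SE, adjusted p = 2.14e-05) among them. The cardiomyocyte marker sum was 189 and 194 CPM in members after MI, against 239, 178 and 997 CPM after sham. In Npr3=0 cells it was 445 and 387 CPM after MI, against 1077, 170 and 1369 CPM after sham. Under DESeq2 neither Actc1 nor Myl2 was called. None of 8 cardiomyocyte genes was called in the interaction of class and injury. Eln was lower after MI (1387 CPM in Mertk KO P1 MI and 1177 in WT P1 MI replicate 2, against 4889.8 in Mertk KO P1 sham, 113 in WT 8 week sham and 3185 in WT P1 sham, log2 fold change -1.51 ± 0.21 SE, adjusted p = 5.79e-07). No endocardial gene of 17 was called, with Vwf at -0.54 ± 0.22 SE.

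Among the endocardial genes the fitted class difference was lower after MI for Plvap (log2 difference -4.14 ± 0.28 SE, adjusted p = 1.90e-04), Cytl1 (log2 difference -5.55 ± 0.76 SE), Vwf (log2 difference -1.92 ± 0.25 SE) and Cdh11 (log2 difference -2.02 ± 0.29 SE). In Npr3=0 cells Plvap was at 275 CPM in Mertk KO P1 MI and 23.5 in WT P1 MI replicate 2, against 21.9 in Mertk KO P1 sham, 50.1 in WT 8 week sham and 0.643 in WT P1 sham. The highest value was that of Mertk KO P1 MI, the library in which 10.9% of Npr3=0 cells had more endocardial than capillary signal. The part of those cells in these differences was not tested. Lrg1, a glycoprotein of inflamed vessels, had in members 80.5 CPM in Mertk KO P1 MI and 9.36 in WT P1 MI replicate 2, against 127 in Mertk KO P1 sham, 53.2 in WT 8 week sham and 3.60 in WT P1 sham. Npr3=0 cells had 207 CPM in Mertk KO P1 MI and 11.9 in WT P1 MI replicate 2, against 3.81 in Mertk KO P1 sham, 39.0 in WT 8 week sham and 1.29 in WT P1 sham (log2 difference -5.60 ± 0.73 SE, adjusted p = 0.0113). Its Npr3=0 level was high after MI only in the Mertk KO library. Gxylt2, a xylosyltransferase that acts on Notch, and Lum, the proteoglycan lumican, had log2 differences of -5.13 ± 0.70 and -3.85 ± 0.47 SE.

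Genotype was compared in the same fit with 2 Mertk KO and 3 WT libraries, all Mertk KO hearts being of P1. Because the age term takes up WT 8 week sham, the fitted genotype differences rest on the P1 libraries. Of 6466 genes, 0.789% were higher and 2.12% lower in Mertk KO members. Capillary and fatty acid genes were lower in Mertk KO members, 8 of 15 capillary genes (median -2.04) and 6 of 10 fatty acid genes (median -1.69), with none higher. The lists overlap, and Cd36, Fabp4, Gpihbp1, Meox2 and Tcf15 were called in both. Endocardial genes were higher in 2 of 17, Vwf and Plvap. Gpihbp1 had 128 CPM in Mertk KO P1 MI and 159 in Mertk KO P1 sham, against 473 in WT 8 week sham, 516 in WT P1 MI replicate 2 and 641 in WT P1 sham (log2 fold change -2.04 ± 0.26 SE, adjusted p = 4.19e-08). Cd36 had 104 CPM in Mertk KO P1 MI and 287 in Mertk KO P1 sham, against 707 in WT 8 week sham, 626 in WT P1 MI replicate 2 and 878 in WT P1 sham (log2 fold change -2.05 ± 0.26 SE, adjusted p = 3.12e-08). Each Mertk KO level lay below each WT level for both genes, and the same held for Sparcl1 (33.1 CPM in Mertk KO P1 MI and 127 in Mertk KO P1 sham, against 219 in WT 8 week sham, 407 in WT P1 MI replicate 2 and 518 in WT P1 sham, log2 fold change -2.59 ± 0.30 SE, adjusted p = 1.95e-09). In Npr3=0 cells Gpihbp1 was at 1307 CPM in Mertk KO P1 MI and 1774 in Mertk KO P1 sham, against 2482 in WT 8 week sham, 1704 in WT P1 MI replicate 2 and 1476 in WT P1 sham, and the genotypes overlapped. The make-up of the class differed along with genotype. The capillary marker sum was 3457 and 5561 CPM in Mertk KO members, against 9635, 16103 and 15480 CPM in WT members. Such sums weigh deep cells most. In WT P1 sham 1 member with a capillary sum of 33862 CPM held 87827 of the 277845 member UMIs. In WT P1 MI replicate 2 the 138 members with 2 or more Npr3 UMIs, of 181, held 1646877 of 2779235. By cell, the median capillary sum was 2633 and 3676 CPM in Mertk KO members, against 4858, 4445 and 2214 CPM in WT members, and the genotypes overlapped. The endocardial sum led in 88.5% and 72.4% of Mertk KO members, against 72.6%, 58.6% and 66.7% of WT members. The part of this mix in the genotype differences was not tested. With members of 2 or more Npr3 UMIs over libraries with at least 3 members, 6 of 13 capillary genes and 3 of 9 fatty acid genes were lower. Fewer capillary cells in the class and less of these transcripts per cell cannot be told apart in the sums. By cell, members with 5 or more Npr3 UMIs had median capillary sums of 2483 and 2587 CPM in Mertk KO, against 3856, 3183 and 1698 CPM in WT. Members with 1 UMI had 2647 and 7559 CPM (10 and 7 cells), against 52448, 24447 and 28162 CPM (12, 43 and 4 cells). These differences were not tested.

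Vwf had 1184 CPM in Mertk KO P1 MI and 1870.4 in Mertk KO P1 sham, against 1612 in WT 8 week sham, 355 in WT P1 MI replicate 2 and 558 in WT P1 sham (log2 fold change 1.71 ± 0.22 SE, adjusted p = 4.48e-08), with the level of WT 8 week sham inside the Mertk KO range. Ahsg had 28.4 CPM in Mertk KO P1 MI and 348 in Mertk KO P1 sham, against 366 in WT 8 week sham, 23.7 in WT P1 MI replicate 2 and 14.4 in WT P1 sham (log2 fold change 2.26 ± 0.41 SE, adjusted p = 9.89e-05), so that 1 library of each genotype stood high, and its call did not hold under DESeq2. Lcn2 and Lrg1 were higher in Mertk KO members. Lcn2 had 359.9 CPM in Mertk KO P1 MI and 4.55 in Mertk KO P1 sham, against 0 in WT 8 week sham, 9.71 in WT P1 MI replicate 2 and 0 in WT P1 sham (log2 fold change 5.17 ± 0.45 SE, adjusted p = 2.49e-13). Lrg1 had 80.5 CPM in Mertk KO P1 MI and 127 in Mertk KO P1 sham, against 53.2 in WT 8 week sham, 9.36 in WT P1 MI replicate 2 and 3.60 in WT P1 sham (log2 fold change 3.44 ± 0.46 SE, adjusted p = 9.30e-08). The neutrophil genes S100a8 and S100a9 were also higher, S100a8 with 199 CPM in Mertk KO P1 MI and 9.10 in Mertk KO P1 sham, against 15.7 in WT 8 week sham, 70.2 in WT P1 MI replicate 2 and 0 in WT P1 sham (log2 fold change 1.56 ± 0.40 SE) and S100a9 with a log2 fold change of 1.42 ± 0.38 SE, or 2 of 4 leukocyte markers tested. Leukocyte markers summed to 507 and 41.0 CPM in Mertk KO members, against 388, 229 and 39.6 CPM in WT members. Of the other lineages 4 of 7 cardiomyocyte markers (Tnni3, Pln, Myl2 and Myl3), 2 of 7 fibroblast markers (Col1a1 and Col3a1) and 1 of 3 mural markers (Rgs5) were lower in Mertk KO members and none was higher. The cardiomyocyte markers summed to 189 and 239 CPM in Mertk KO members, against 178 in WT 8 week sham, 194 in WT P1 MI replicate 2 and 997 CPM in WT P1 sham. Fibroblast markers summed to 1861 and 1618 CPM in Mertk KO members, against 3136, 2256 and 2095 CPM in WT members. The part of these lineages in the genotype differences was not tested. Lcn2 stood high in Mertk KO P1 MI alone, and Lrg1 was higher in WT 8 week sham than in either WT P1 library. The imprinted genes H19 and Plagl1 were higher (log2 fold change 1.21 ± 0.21 and 1.01 ± 0.24 SE) and Mest was lower (log2 fold change -1.71 ± 0.27 SE). Pcdh17, a protocadherin, had 14.2 CPM in Mertk KO P1 MI and 36.4 in Mertk KO P1 sham, against 25.04 in WT 8 week sham, 132 in WT P1 MI replicate 2 and 382 in WT P1 sham (log2 fold change -3.38 ± 0.34 SE, adjusted p = 2.07e-11). The level of WT 8 week sham (8 UMIs) lay inside the Mertk KO range. That library is taken up by the age term, so the fitted difference rests on the P1 libraries. Apln had 0 CPM in Mertk KO P1 MI and 4.55 in Mertk KO P1 sham, against 12.5 in WT 8 week sham, 66.6 in WT P1 MI replicate 2 and 101 in WT P1 sham, and with 2 UMIs in all Mertk KO members the ratio of pooled levels was 0.0478 with a counting interval of 0.00576 to 0.175 (adjusted p = 3.34e-07). Ccn2, a matricellular growth factor, was at 0 and 9.10 CPM in Mertk KO members, against 626 CPM in WT 8 week sham, 30.2 in WT P1 MI replicate 2 and 75.6 in WT P1 sham (log2 fold change -3.38 ± 0.59 SE, adjusted p = 5.86e-05). Inhba had a log2 fold change of -1.55 ± 0.29 SE. Chemokine Cxcl1 was lower in Mertk KO members (4.74 CPM in Mertk KO P1 MI and 13.7 in Mertk KO P1 sham, against 15.7 in WT 8 week sham, 169 in WT P1 MI replicate 2 and 54.0 in WT P1 sham, log2 fold change -3.18 ± 0.48 SE, adjusted p = 3.66e-06), as were the immediate early genes Junb, Nr4a1, Zfp36 and Btg2 (4 of 18).

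The interaction of class and genotype called 0.157% of 9576 genes, 15 in number. The genotype difference in members was lower than that in Npr3=0 cells for Fabp4 (log2 difference -2.05 ± 0.08 SE, adjusted p = 2.58e-06), Gpihbp1 (log2 difference -1.99 ± 0.19 SE, adjusted p = 0.00324), Sparcl1 (log2 difference -2.22 ± 0.26 SE), Apln (log2 difference -5.03 ± 0.66 SE), Inhba (log2 difference -4.92 ± 0.49 SE) and Pcdh17 (log2 difference -3.08 ± 0.32 SE). Plvap and Cytl1 were called as well, with log2 differences of -3.10 ± 0.26 and -5.41 ± 0.61 SE, and for both the Npr3=0 cells of Mertk KO P1 MI had the higher level of the 2 Mertk KO libraries, 275 against 21.9 CPM for Plvap and 45.4 against 1.90 CPM for Cytl1. Hist1h2ap had a positive difference (log2 difference 2.14 ± 0.32 SE, adjusted p = 0.0342), which was not called under DESeq2. Injury differences could not be compared between genotypes or ages with a test among the members, since each of these groups had 1 library with at least 15 members and no residual degree of freedom was left.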

How the data were processed

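Single-cell RNA was captured from dissociated hearts in 7 droplet libraries (3′ chemistry v3 or v3.1, not given per library), with CD45+ cells recombined with the rest at 2:1, per the labels' protocols. The deposited values are raw UMI counts per gene and cell, made by the authors with Cell Ranger 4.0.0 or 6.1.0, per the file headers.

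A cell was kept with 500 or more UMIs, 300 or more genes and a mitochondrial share of no more than 15%. No doublet caller was run, and cells of the highest UMI counts were left out as an alternative. Counts were summed per library and class and tested with edgeR 4.0.16 (R 4.3.3; quasi-likelihood test, TMM scaling, filterByExpr, Benjamini-Hochberg adjustment over all genes tested), with DESeq2 1.42.0 as an alternative. The SE of a log2 fold change is its size over the square root of F. The class contrast carries the library as a block, since both sums of a pair come from the same library. Levels are CPM of the sums, intervals are exact (Clopper-Pearson or Poisson), and floors are 3 UMIs. Depth per library sets the precision, and intervals cover counting error only.

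Named genes are the 12 highest and 12 lowest called genes of the class contrast with at least 50 CPM in the higher class and the same sign in every library, the 8 highest and lowest of each term within members, the 5 highest and lowest of each interaction, the endocardial list, and 2 to 4 genes of each pathway list, called ones first. One gene that the rule names is not reported here. Other genes in the text were chosen after their values were seen. The members and lists were chosen with earlier results of these data known. The class definitions were checked on the files and the tests on simulated sums with a true log2 change of 2. The class contrast recovered 95.3% of 190 changed genes, with 6 false calls. The injury term within members recovered 77.4% of 146 with 14 false calls. The class by injury term recovered 51.5% of 196 with 19 false calls, so these 2 terms miss more changes and make more false calls. Genes of the rule were not tested, and libraries with under 15 members entered no test. Promoter sequences are RefSeq's, on GRCm38.p6, and gene positions are GENCODE's on GRCm38.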

Additional observations from a re-analysis of the deposited data

Results flagged for a closer look

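Ly6c1, a capillary surface antigen, had a log2 ratio of members over Npr3=0 cells of -7.99 in Mertk KO P1 MI, where members had 0 UMIs, apart from the other 4 libraries at -2.90 to -1.71. It was the single such value among the 24 genes looked at, and chance sets a sample apart in about 1 of 20 groups.

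The class difference changed with age, by the interaction term in edgeR, toward larger at 8 weeks for Cenpa, a centromere protein (log2 difference 6.07), H19 (5.85), Plagl1 (4.15), Colec11 (3.92) and Fhl2 (3.62), and toward smaller for Cytl1 (-7.47), Stmn2 (-4.96), Plvap (-4.14), Pi16 (-3.82) and Eln (-3.52). It changed with injury, toward larger after MI for Igkc (11.63), Cenpf (11.3), Hist1h1b (7.33), Hist1h2ap (7.29) and Tpx2 (5.08), and toward smaller for Lrg1 (-5.6), Cytl1 (-5.55), Gxylt2 (-5.13), Plvap (-4.14) and Lum (-3.85). It changed with genotype, toward larger in Mertk KO for Hist1h2ap (2.14), and toward smaller for Cytl1 (-5.41), Apln (-5.03), Inhba (-4.92), Plvap (-3.1) and Pcdh17 (-3.08). Igkc in P1 members came from 47 UMIs in WT P1 MI replicate 2, against 0 in the other 3 P1 libraries. The terms of Apln, Cenpa, Cenpf, Hist1h1b, Hist1h2ap, Igkc, Inhba and Tpx2 rest on sums with 0 UMIs in at least 1 library, and are fitted values, not bounds. In WT P1 sham the Npr3=0 cells held fewer UMIs of Cytl1 and of Plvap than the floor of 3, so the terms of both are fitted values too.

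Cells that the rule keeps out for Prox1 alone held much of the endothelial Npr3 signal. Such cells carried 9.23% of all Npr3 UMIs of kept cells in Mertk KO P1 MI (3 cells), 23.6% in Mertk KO P1 sham (8 cells), 6.31% in WT 8 week sham (6 cells), 37.8% in WT P1 MI replicate 1 (6 cells), 33.5% in WT P1 MI replicate 2 (68 cells) and 62.0% in WT P1 sham (8 cells). Their median endocardial sum was 4883 to 6881 CPM in the 5 compared libraries, beside medians of 5984 CPM in members with 2 to 4 Npr3 UMIs and 7943 CPM in those with 5 or more. With Prox1 allowed, 631 genes were called for age, against 395 under the rule.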

How the results depend on the processing

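No named result changed direction under any alternative that was run, and 24 of 98 named results had no adjusted p under DESeq2. Of those that had one, DESeq2 ended the call of 3 of 7 for age, 9 of 13 for injury and 4 of 5 for genotype within members, of 3 of 10, 2 of 9 and 2 of 6 for the interactions with age, injury and genotype, and of none of 24 for the class contrast. The class contrast called 1058 genes. It called 436 with cells thinned to 1500 UMIs, 486 with Npr3=0 cells matched in depth and 1660 without a filter on low counts, and 879 to 1094 when 1 library was left out. With members of 2 or more Npr3 UMIs it called 1508, of which 753 were lower in members, against 463 under the rule. That setting also left out WT P1 sham, which had 11 such members. Fewer genes were tested in the first pair of settings. Its 2 sums per library are paired by construction, and without the replicate block 727 genes were called. The Rgs5 call alone was lost among the 24 genes named there. No paired analysis was possible for age, injury and genotype within members because each library gives 1 member sum.

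For age, 395 genes were called, 64 with DESeq2, 183 with libraries of 3 or more members, 165 when members also needed 2 Npr3 UMIs, and 631 with Prox1 allowed. For injury, 165 became 16, 62 and 49 in the first 3 of these settings, and for genotype 188 became 16, 88 and 59. For the class by age difference, 25 became 9, 51, 75 and 176 in the 4 settings, 119 without a filter and 40 with stricter cell limits. The class by injury difference (34) became 14 with DESeq2, 73 with libraries of 3 or more members, 124 with Prox1 allowed and 105 without a filter. The class by genotype difference (15) became 51, 55, 95, 85 and 23 with libraries of 3 or more members, these with 2 Npr3 UMIs, Prox1 allowed, no filter and stricter cell limits. The settings on libraries of 3 or more members, on Prox1 and on the highest UMI counts were chosen after seeing the data. The cause of these moves was not tested.

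Leaving out WT 8 week sham gave 116 genes for injury and 148 for genotype, of 5482 tested in place of 6466. The age term already takes up that library, so this setting cannot check the injury and genotype differences. Leaving out any P1 library left the terms within members and the interactions without residual degrees of freedom, so these were not run. A fit of 6 groups, cells with other lineages' markers left out, and for these terms 2 Npr3 UMIs alone or the highest UMI counts left out, could not be fitted for lack of members or degrees of freedom. WT P1 sham has 15 members and Mertk KO P1 MI has 26, so genes at 0 in their sums are not shown to be absent.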

Other observations

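Endothelial cells kept out for Ptprc alone held 29.6% of the Npr3 UMIs of Mertk KO P1 MI (21 cells), 0.126% in Mertk KO P1 sham (1 cell), 10.5% in WT 8 week sham (17 cells), 2.80% in WT P1 MI replicate 2 (16 cells) and 0.573% in WT P1 sham (3 cells). Their median endocardial sum was 2560 CPM in Mertk KO P1 MI, 4480 CPM in WT 8 week sham and 2332 CPM in WT P1 MI replicate 2.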
